A study of Homo sapiens with 12 samples.

Results

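The genes described here are 31 established transcriptional targets of p53 that do not belong to the BCL2 family. They were listed by name and looked up among the 58037 genes of the deposited count table, and all 31 had a row. HCT116 cells, a human colorectal carcinoma line of the parental genotype with wild-type p53, had been treated for 8 h with DMSO, with 10 μM Nutlin-3a, with 20 nM NVP-2 or with 10 μM Nutlin-3a and 20 nM NVP-2 together, 3 samples each. Nutlin-3a frees p53 from its ubiquitin ligase MDM2, and NVP-2 inhibits CDK9, the kinase of P-TEFb. A comparison of every row showed that the 12 columns of the table do not differ at any gene, so that they amount to 1 profile of HCT116 cells. Which treatment it came from is not known and was not inferred, and the response of the p53 targets to either compound was therefore not measured. What the profile does give is the level of each target relative to the others and to the rest of the transcriptome, and these levels are the subject of what follows.

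p53 is a transcription factor that binds DNA as a tetramer and switches on genes after DNA damage, oncogene activity or release from MDM2. Its targets halt the cell cycle, repair DNA, adjust metabolism and redox balance, promote death and, through MDM2 and a few others, restrain p53 itself. In HCT116 cells the wild-type protein can keep some of these genes transcribed at a basal level even without stress. Whether p53 did so in the profile described here was not tested.

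The profile holds 22720718 counts. CPM is the count scaled to a common library total, and RPKM divides CPM by the length of the merged exons of the gene in kilobases, so that only RPKM compares different genes. Intervals are 95% Wilson intervals, which cover counting error only, because no replicate gives the spread between cultures. Of 11 markers of colon epithelium 7 reached an RPKM of 1, led by the keratin *KRT8* at 514 RPKM, whereas the intestinal genes *CDX1*, *VIL1* and *LGALS4* had 0, 4 and 4 counts. None of 12 markers of blood, stromal, endothelial, liver and glial cells reached an RPKM of 1, and *COL1A1* was the highest of them at 0.972 RPKM, which became 1.48 with the length of its canonical transcript.

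p53 recognises a pair of half-sites of 10 bases each, separated by 0 to 13 bases. To see which of the targets carry a perfect match close to their start, 2500 bp on each side of the start of the canonical transcript were searched in hg38. A perfect match was found in 4 of the 31 genes, against 0.591% of all 19626 protein-coding genes, 116 in number. These matches are printed below on the strand of the gene, from 5′ to 3′, with the half-sites in capitals and the spacer in lower case, since they show how close to the consensus individual targets come.
*DDB2*: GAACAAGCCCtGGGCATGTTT
*TIGAR*: AGACATGTCCacAGACTTGTCT
*ZMAT3*: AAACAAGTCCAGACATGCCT
*PLK2*: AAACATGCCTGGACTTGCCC
The *DDB2* match occupies chr11:47214979-47214999 on the plus strand, in an exon 5 to 25 bp downstream of the start, with a spacer of 1 base. The *TIGAR* match lies in an intron at chr12:4321615-4321636 on the plus strand, 402 to 423 bp downstream, with a spacer of 2 bases. In *ZMAT3* the half-sites abut in an intron at chr3:179070188-179070207 on the minus strand, 1602 to 1621 bp downstream. Only the *PLK2* match is upstream of its gene, at chr5:58462274-58462293 on the minus strand.

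When 1 base was allowed to deviate, 9 of the 31 genes had a match, compared with 2558 of the 19626 protein-coding genes. The additional genes were *APAF1*, *CCNG1*, *EDA2R*, *RRM2B* and *SFN*. The half-sites abut in *CCNG1*, *EDA2R* and *RRM2B*, and the matches of *CCNG1* and *EDA2R* are shown as examples, with the deviating base in lower case.
*CCNG1*: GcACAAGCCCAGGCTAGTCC
*EDA2R*: GAACATGCCTGGACgTGTCC
The *CCNG1* match lies in an intron at chr5:163437926-163437945 on the plus strand and the *EDA2R* match in an intron at chrX:66638713-66638732 on the minus strand. These matches describe letters in the reference, not binding, and genes without one can hold elements elsewhere or with more deviations. *CDKN1A* and *MDM2*, for instance, had no match of either kind within the window. The 4 genes with a perfect match had a median level of 2.21 RPKM and a range of 0.783 to 15.7, and the other 27 had a median of 7.50 RPKM and a range of 0 to 159, a difference that was not tested.

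**Figure D1:**
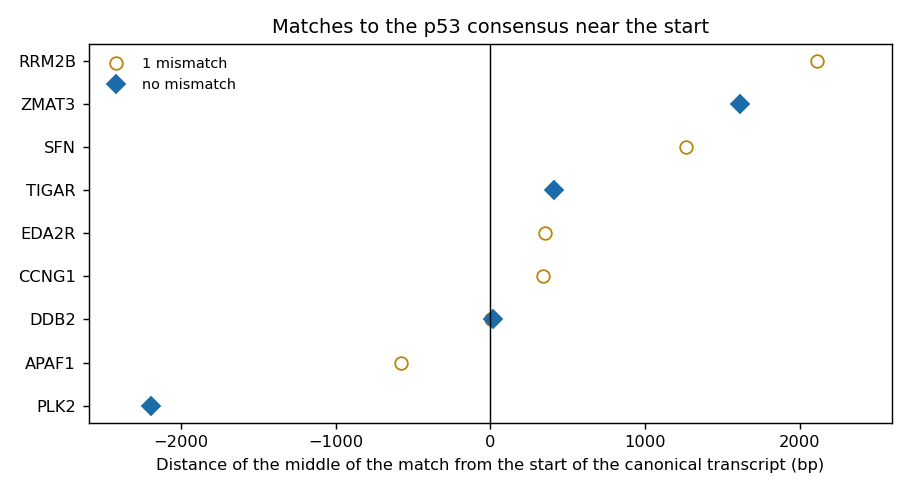
Position of matches to the p53 consensus in the 9 target genes that have one, as the distance in bp from the start of the canonical transcript (x axis, middle of the match), with filled diamonds for perfect matches and open circles for matches with 1 deviating base. The perfect matches of *DDB2*, *TIGAR* and *ZMAT3* sit downstream of the start and that of *PLK2* upstream of it.

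As a group, the p53 targets were expressed above the typical protein-coding gene. An RPKM of at least 1 was reached by 26 of the 31 genes, against 44.6% of all 19626 protein-coding genes. Their median was 7.43 RPKM, compared with 1.86 RPKM over the 14848 protein-coding genes with at least 1 count, and 25 of them lay above the latter value. The upper quartile of detected genes, above 7.88 RPKM, held 14 targets and the upper decile, above 26.0 RPKM, held 8. The targets together took 50267 counts, which is 0.221% of the profile. The list was put together from known targets and no test was made of it against other genes.

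**Figure D2:**
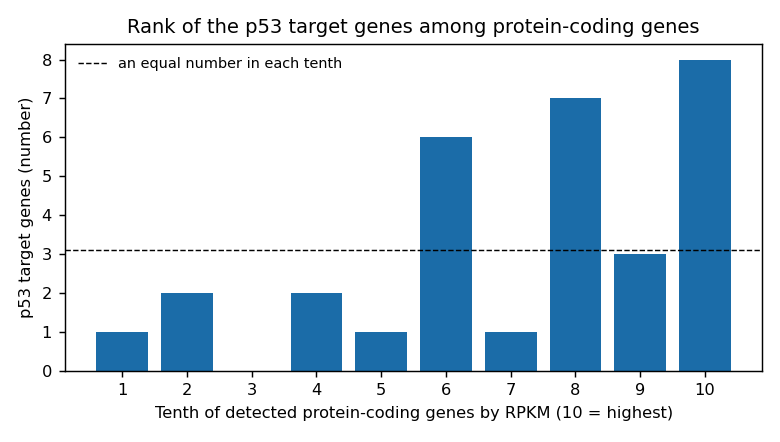
Number of p53 target genes (y axis) in each decile of the 14848 detected protein-coding genes ordered by RPKM (x axis, 10 being the highest). The highest decile holds 8 targets, and the dashed line marks an even spread over deciles.

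The levels nevertheless ranged from 159 RPKM in *CDKN1A* to 0.0744 RPKM (0.0360 to 0.154) in *GLS2*, the lowest target with any count. The latter value rests on 7 counts. Divided by the share of windows found in no other gene on either strand, it was 0.144 RPKM. The overlap of *GLS2* is mostly with a gene on the opposite strand, however, whose reads are kept apart by strand-specific counting. A few genes made up most of the signal, as *CDKN1A* alone accounted for 21.6% of the counts of all targets and the 5 genes with most counts for 54.0%. Ordered by RPKM, 18 of the 30 pairs of neighbours had overlapping counting intervals, so that counting error leaves much of the order unresolved. The highest genes were *CDKN1A*, *SFN* and *GDF15*, each separated from the next by its counting interval. The intervals do not cover the choice of gene length, and *GDF15* came before *SFN* with the length of the canonical transcript.

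**Figure D3:**
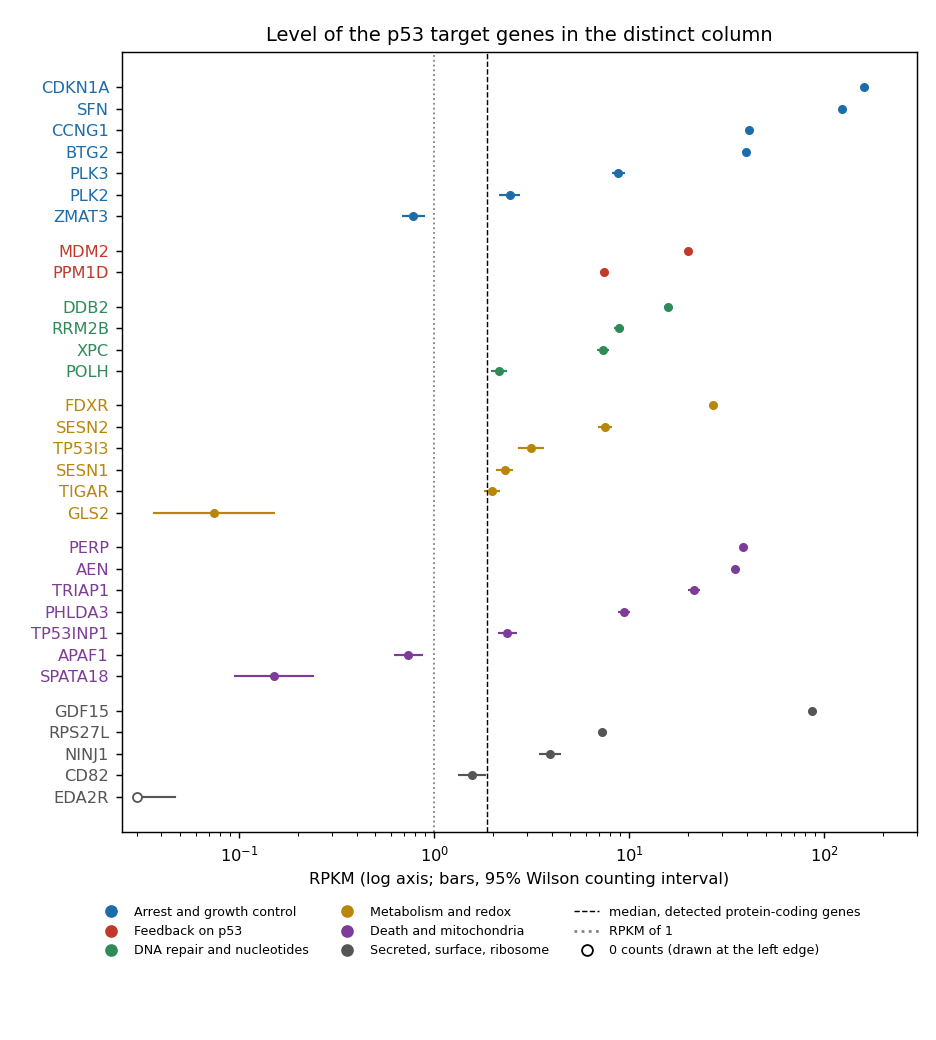
RPKM of the 31 p53 target genes on a log axis (x axis), grouped by function, with 95% Wilson counting intervals as bars, the median of detected protein-coding genes as a dashed line and an RPKM of 1 as a dotted line. *CDKN1A* and *SFN* stand highest, and *ZMAT3*, *APAF1*, *SPATA18*, *GLS2* and *EDA2R* fall below an RPKM of 1.

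The genes of cell-cycle arrest and growth control were the most abundant group, with 41.8% of the counts of all targets in 7 genes. Their median was 39.5 RPKM. *CDKN1A* alone gave 10839 of the 21009 counts of this group. *CDKN1A*, which encodes the cyclin-dependent kinase inhibitor p21, lies on chromosome 6 from 36676460 to 36687337 of hg38, on the plus strand. It had 10839 counts, or 477 CPM (468 to 486), and its level of 159 RPKM (156 to 162) placed it above 98.5% of detected protein-coding genes. *SFN*, a gene of a single exon on chromosome 1 from 26863149 to 26864456, encodes stratifin, which holds cyclin B and CDK1 in the cytoplasm. It followed with 3685 counts and 124 RPKM (120 to 128). *CCNG1*, encoding cyclin G1, which guides a phosphatase to MDM2, and *BTG2*, encoding an antiproliferative adaptor of mRNA deadenylation, could not be separated, with 41.0 RPKM (39.5 to 42.5) from 2884 counts and 39.5 RPKM (38.0 to 41.1) from 2476 counts.

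The remaining genes of this group were far lower. *PLK3*, a stress-responsive polo-like kinase, had 666 counts and 8.81 RPKM (8.17 to 9.51). Its relative *PLK2* reached 2.44 RPKM (2.16 to 2.76) from 258 counts. *ZMAT3*, whose zinc finger protein binds RNA and regulates splicing, had 201 counts and stayed under 1 RPKM at 0.783 (0.682 to 0.899). *PLK2* and *ZMAT3*, the lowest genes of arrest, are among the genes with a perfect p53 match. *SFN* and *CCNG1*, at 124 and 41.0 RPKM, have matches with 1 deviating base. A relation between match and level was not tested.

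Both feedback regulators were well expressed. *MDM2*, the ubiquitin ligase that marks p53 for degradation, is encoded at chromosome 12 between 68808177 and 68845544 and had 3800 counts, or 20.1 RPKM (19.5 to 20.8). *PPM1D*, encoding the phosphatase WIP1, which reverses the phosphorylation of p53 and of its kinases, had 1589 counts and 7.43 RPKM (7.08 to 7.81) and sat at the median of all 31 genes. Of 14 genes for relatives and regulators of p53 12 reached an RPKM of 1, and their median of 1.80 RPKM was close to that of detected genes. The exceptions were the damage-sensing kinase gene *ATM* with 443 counts and 0.498 RPKM, or 1.51 RPKM with the canonical length, and the p53 relative *TP63* with 5 counts.

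All 4 repair genes were expressed, within a narrower range than the arrest genes. *DDB2*, the sensor that recognises UV lesions in chromatin, was highest with 1732 counts and 15.7 RPKM (15.0 to 16.5). *RRM2B*, a subunit of ribonucleotide reductase that supplies nucleotides outside S phase, and *XPC*, which starts global nucleotide excision repair, had 8.88 RPKM (8.37 to 9.43) and 7.35 RPKM (6.85 to 7.88). *POLH*, encoding the polymerase that bypasses thymine dimers, was lowest with 409 counts and 2.15 RPKM (1.95 to 2.37). The intervals of *DDB2* and *POLH* did not overlap with those of the other repair genes, nor did those of *RRM2B* and *XPC* with each other. Over windows found in no other gene on either strand, *XPC* came to 8.60 RPKM, within the interval of *RRM2B*. *XPC* shares exon bases only with genes on the opposite strand, however, whose reads are kept apart by strand-specific counting.

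The metabolic targets had a median of 2.72 RPKM, the lowest of the groups. *FDXR*, the mitochondrial ferredoxin reductase that feeds electrons into steroid and iron-sulfur cluster synthesis, was the exception with 2187 counts and 26.7 RPKM (25.6 to 27.9). The sestrins, which restrain mTORC1 under stress, differed, as *SESN2* had 590 counts and 7.50 RPKM (6.92 to 8.13) and *SESN1* 381 counts and 2.30 RPKM (2.08 to 2.55). *TP53I3*, a quinone oxidoreductase linked to reactive oxygen species, stood at 3.14 RPKM from 165 counts, or 7.26 CPM (6.24 to 8.46). *TIGAR*, a fructose bisphosphatase that diverts glucose to the pentose phosphate pathway, was at 1.98 RPKM (1.80 to 2.17). *GLS2*, the glutaminase of liver and other differentiated tissues, was nearly silent with 7 counts and 0.0744 RPKM (0.0360 to 0.154).

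Among the genes of death and mitochondria, the abundant and the scarce were side by side. *PERP*, a membrane protein of desmosomes that also promotes death, had 3645 counts and 38.2 RPKM (37.0 to 39.5), and *AEN*, a nuclease that fragments DNA and RNA during apoptosis, 34.7 RPKM (33.7 to 35.7). *TRIAP1*, which favours survival by supplying phospholipids to mitochondria, came next with 690 counts and 21.5 RPKM (20.0 to 23.2). *PHLDA3*, whose pleckstrin homology domain competes with AKT for membrane lipids, had 694 counts and 9.42 RPKM (8.74 to 10.1). *TP53INP1*, a stress protein that acts with p53 and in autophagy, was at 2.37 RPKM (2.12 to 2.65). *APAF1*, the scaffold of the apoptosome, fell below an RPKM of 1 at 0.737 (0.621 to 0.876), and *SPATA18*, a factor of mitochondrial quality control, had 17 counts and 0.150 RPKM (0.0939 to 0.241). The order within this group therefore ran from *PERP* to *SPATA18* with no overlap between the intervals of neighbours for the merged exon length. With the canonical length *AEN* stood above *PERP*, at 67.5 against 38.2 RPKM.

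The 5 other targets are a cytokine, cell surface proteins and a ribosomal protein. *GDF15*, a secreted stress cytokine whose gene lies on chromosome 19 from 18374731 to 18389176, had 4086 counts and 86.2 RPKM (83.6 to 88.9), below *SFN* by merged length and above it by canonical length. *RPS27L*, a ribosomal protein relative, had 1459 counts and 7.28 RPKM (6.91 to 7.66), or 64.2 CPM. Its canonical transcript has 252 nt of coding sequence and 5783 nt of 3′ UTR. Both gene lengths used here include this 3′ UTR, so the RPKM depends on its annotation. *NINJ1*, which ruptures the plasma membrane in dying cells, was at 3.94 RPKM (3.46 to 4.48), and the tetraspanin and metastasis suppressor *CD82* at 1.56 RPKM (1.32 to 1.84) from 143 counts. *EDA2R*, a receptor of the tumour necrosis factor family, had 0 counts, which by the limit of 3 counts allows up to 0.132 CPM, while the Wilson interval drawn in the plot of levels by function ends at 0.0468 RPKM or 0.169 CPM. It was the single target with no count.

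Many of the targets have paralogs, and the ratio of the RPKM values within the profile shows which of them prevailed. Ratios carry exact binomial (Clopper-Pearson) counting intervals. In 28 pairs, leaving out *RPS27* and *NINJ2* for the reasons given below, the p53 target was higher in 15 and lower in 12 beyond counting error, and the interval held 1 in the remaining pair. Among the 12 is *SESN1* and *SESN2*, which are both targets.

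In the families of *CDKN1A*, *CCNG1*, *MDM2* and the sestrins, the p53 targets were the more abundant transcripts. *CDKN1A* exceeded *CDKN1B*, which encodes the related inhibitor p27, 37.4-fold (34.9 to 40.0) and *CDKN1C* 115-fold (92.1 to 146). *CCNG1* exceeded *CCNG2* 197-fold (142 to 284), and *BTG2* exceeded *BTG1* 85.5-fold (64.8 to 115). *BTG3* was the closest relative in level, with a *BTG2* to *BTG3* ratio of 1.10 (1.03 to 1.17) that turned to 0.679 with the length of the canonical transcripts. *MDM2* exceeded *MDM4*, the p53 inhibitor that lacks strong ligase activity, 17.2-fold (15.3 to 19.5). Both p53-responsive sestrins exceeded *SESN3*, which is controlled by FOXO factors, *SESN2* 69.3-fold (46.8 to 107) and *SESN1* 21.3-fold (14.3 to 33.0).

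In the families of *RRM2B*, the polo-like kinases and *PHLDA3*, the p53 targets were the less abundant transcripts. *RRM2*, the subunit of ribonucleotide reductase used in S phase, exceeded *RRM2B* 5.22-fold (4.90 to 5.56). *PLK1*, the mitotic polo-like kinase, exceeded *PLK3* 4.83-fold (4.45 to 5.25) and *PLK2* 17.4-fold (15.4 to 19.8). *PPM1D* was 10.6-fold (10.1 to 11.2) below the phosphatase gene *PPM1G*, yet 6.19-fold (5.33 to 7.22) above *PPM1B*. *PHLDA1* and *PHLDA2* exceeded *PHLDA3* 13.4-fold (12.4 to 14.5) and 22.6-fold (20.9 to 24.5).

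The other families followed no common direction. The tetraspanin genes *CD81* and *CD9* exceeded *CD82* 27.5-fold (23.3 to 32.6) and 21.5-fold (18.2 to 25.6). *YWHAZ* and *YWHAE*, housekeeping relatives of stratifin, exceeded *SFN* only 1.76-fold (1.70 to 1.82) and 2.29-fold (2.21 to 2.37). *GDF15* exceeded *GDF11* 84.9-fold (73.7 to 98.2), *AEN* exceeded *ISG20L2* 3.77-fold (3.53 to 4.03) and *TP53INP1* exceeded *TP53INP2* 2.65-fold (2.08 to 3.41). *POLH* exceeded the other lesion bypass polymerases *POLI* 2.89-fold (2.40 to 3.50) and *POLK* 5.17-fold (4.31 to 6.22). The ratio of *TIGAR* to *PFKFB2*, an enzyme acting on the related fructose bisphosphate, was 1.11 (0.968 to 1.28). It was 1.34 over windows found in no other gene and 0.889 with the canonical length, so that no direction was read from it.

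**Figure D4:**
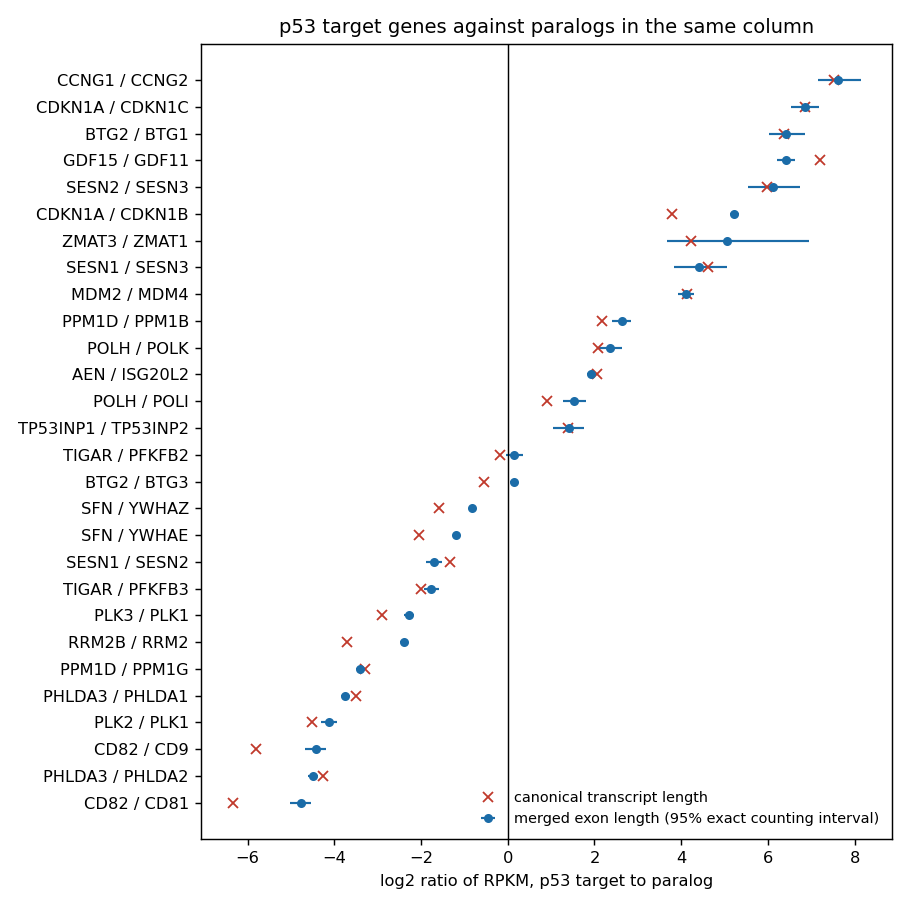
The log2 ratio of RPKM of p53 targets to paralogs (x axis) for 28 pairs (y axis), with points and 95% exact counting intervals for the merged exon length and crosses for the length of the canonical transcript. *CCNG1* to *CCNG2* is the highest ratio and *CD82* to *CD81* the lowest.

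Partners from other families were compared for 4 targets. *DDB1*, which forms a complex with DDB2, exceeded *DDB2* 2.25-fold (2.14 to 2.36), and *RAD23B*, which stabilises XPC, exceeded *XPC* 13.9-fold (12.9 to 15.0). *FDXR* was 3.49-fold (3.18 to 3.84) above its electron acceptor *FDX1*. *APAF1* and the caspase it activates, *CASP9*, were both scarce at 0.737 and 0.476 RPKM, and their ratio of 1.55 (1.13 to 2.15) became 0.889 with the length of the canonical transcripts.

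The length assigned to a gene affected both the levels and the ratios. With the canonical transcript in place of the merged exons, the value of *DDB2* moved most, from 15.7 to 42.0 RPKM. *AEN* then stood at 67.5 RPKM, *FDXR* at 52.1, *PPM1D* at 14.7, *NINJ1* at 8.29, *PLK2* at 4.08, *CD82* at 2.85, *GDF15* at 150 and *GLS2* at 0.129, all more than 1.5 times their merged value. *CDKN1A* remained the highest of the targets and 9 of the 10 highest genes were shared. Among the ratios, *CDKN1A* to *CDKN1B* became 13.8, *GDF15* to *GDF11* 148, *FDXR* to *FDX1* 6.81, *POLH* to *POLI* 1.86 and *RRM2B* to *RRM2* 0.0771. *CD81* and *CD9* then exceeded *CD82* 81.0-fold and 56.1-fold, *PLK1* exceeded *PLK3* 7.49-fold, and *YWHAZ* and *YWHAE* exceeded *SFN* 3.01-fold and 4.12-fold. Apart from *BTG2* to *BTG3*, *APAF1* to *CASP9* and *RPS27L* to *RPS27*, the ratios past counting error kept their direction.

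A few of these values depend on how reads can be assigned. Of the 75-base windows of the canonical *RPS27* transcript, 65.1% also occur in transcripts of other genes, mostly processed pseudogenes, and *RPS27* had 103 counts, whereas 0.215% of the windows of the canonical *RPS27L* transcript do so. The *RPS27L* to *RPS27* ratio of 1.65 was therefore not read as a difference between the genes. *NINJ2* had 1 count, and the ratio of *NINJ1* to it was 166 with an interval of 29.5 to 6594. *FDX2*, another acceptor of *FDXR*, had 3 counts, and 56.2% of its windows lie in an overlapping gene. Among the targets, exons of other genes on the same strand cover 18.4% of *PHLDA3*, 18.1% of *TIGAR*, 5.65% of *GLS2* and 5.29% of *MDM2* in GENCODE v44. Reads there can be lost from the count if the overlapping gene is also in version 25, which was not checked. On the opposite strand, the exons of *SPRYD4* cover 77.1% of *GLS2*, and these reads are kept apart by strand-specific counting.

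Targets with higher levels tended to have fewer exons and a smaller merged exon length, as the Spearman correlation across the 31 genes was -0.55 between RPKM and the number of exons and -0.50 between RPKM and merged exon length. Across the 14848 detected protein-coding genes these correlations were 0.03 and -0.09. Genes are not independent replicates, and RPKM contains the length, so that these values describe the list only. The median number of exons was 7 in the targets and 9 in detected genes, with extremes of 1 in *SFN* and 27 in *APAF1*. The 3′ UTR of the canonical transcript was longer in the targets, with medians of 1963 and 1203 nt. The pentamer ATTTA, the core of AU-rich elements that shorten mRNA half-life, occurred on the sense strand in the 3′ UTR of 24 of the 31 targets and of 70.3% of detected genes with a 3′ UTR. Most copies were found in *MDM2* with 23 and *RRM2B* with 22.

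RefSeq promoters (GRCh38.p14), which cover 250 bases before and 50 after the start, were matched for 28 of the 31 targets. The GC box letters GGGCGG were present in 27 of them and in 65.2% of the 15251 protein-coding genes with a promoter. The TATA box letters TATAAA were present in 1, *GDF15*, and in 12.4% of those protein-coding genes. Each motif was searched on both strands. A protein-coding gene started within 1000 bp upstream on the opposite strand in 5 of the 31 targets, against 9.38% of protein-coding genes. At 147 bp from *POLH* was the nuclear export gene *XPO5* with 15.5 RPKM, and at 216 bp from *XPC* the RNA-processing gene *LSM3* with 29.0 RPKM, both higher than the p53 target they face. *IKBIP*, at 502 bp from *APAF1*, was likewise the higher of the pair with 5.97 RPKM against 0.737. In the other 2 pairs the p53 target was higher, as *GATC* at 60 bp from *TRIAP1* had 5.98 RPKM against 21.5 and *CEP57L1* at 661 bp from *SESN1* had 0.323 RPKM against 2.30.

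Another 24 known p53 targets outside the list were looked up for comparison, 23 of them as protein-coding genes. Of these 16 reached an RPKM of 1, against 44.6% of all protein-coding genes, and their median over all 23 was 3.88 RPKM. The highest were *KITLG*, the ligand of the receptor KIT, with 95.6 RPKM and the plexin gene *PLXNB2* with 58.2 RPKM, and the lowest was *TRIM22* with 8 counts. Some fell short of the threshold by merged length only. With the length of the canonical transcript, *FAS* rose from 0.269 to 2.13 RPKM and *PANK1* from 0.584 to 1.35 RPKM.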

How the data were processed

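Poly(A)-selected RNA of 12 HCT116 samples was sequenced as single-end 75-base reads. According to the methods, the authors mapped reads to hg38 and rRNA by ContextMap, which ran BWA, and obtained strand-specific gene counts from featureCounts on Gencode version 25. The deposited values are raw counts without normalization. Columns were assigned to samples by name and compared at each gene, which gave 1 distinct column, used here under 1 name. Differences between treatments would be 0 by construction, so the planned tests were not run.

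Identifiers without version suffix were matched to GENCODE v44 (56948 of 57992). CPM, RPKM (merged exons), Wilson and Clopper-Pearson intervals were computed with Python 3.11.15, pandas 2.3.3 and scipy 1.17.1. Sequence matches used hg38. The 75-base windows were taken from GENCODE v44 transcripts. Levels over windows found in no other gene are RPKM divided by the share of such windows, with either strand of the other gene compared. The searches and intervals were tested on simulated data. All 31 targets are named. Other genes come from fixed lists of paralogs, partners, regulators, other p53 targets and markers, or from searches for neighbouring starts and overlapping exons. Targets and lists were chosen with earlier results of these data known. Alternatives concerned gene length, total, filter and search window. Gene lengths in v44 can differ from those behind the counts. Results for some genes are not reported here.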

Additional observations from a re-analysis of the deposited data

How the results depend on the processing

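No paired analysis was possible because the columns hold the same values, so tests between treatments, with their alternatives of tool, filter, replicate block and left-out replicates, were not run. The number of targets with an RPKM of at least 1 was 26 with either gene length. The share of all protein-coding genes was 44.6% with the merged and 49.1% with the canonical length. A CPM of at least 1 was reached by 28 targets. The share of all protein-coding genes at this CPM was not computed. Their median of 3.21 CPM lies above it, so most of them reached it as well. At least 1 count was found in 30 targets and in 14848 of the 19626 protein-coding genes. The median of the targets was 7.43 RPKM, which became 10.0 with canonical transcripts, where the median of detected protein-coding genes was 2.88, 8.30 without mitochondrial counts in the total and 7.50 with windows found in no other gene. Perfect p53 matches fell from 4 genes to 2 in the narrower window and rose to 9 with 1 deviating base, as narrower or looser searches must. With canonical transcripts the log2 ratio turned from positive to -0.56 for *BTG2* to *BTG3*, to -0.17 for *APAF1* to *CASP9* and to -0.29 for *RPS27L* to *RPS27*, which follows from the lengths alone. Canonical lengths moved 21 of the 31 levels out of their counting interval, and 9 of the 10 highest genes were the same. Depth limits the levels of *SPATA18*, *GLS2* and *EDA2R*.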
